A study of Mus musculus with 18 samples.

Results

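Bulk RNA sequencing compared the dorsal root ganglia (DRG) with the spinal cord of control mice, in 3 libraries of each tissue. These are 6 of the 18 libraries of a study of joint pain in a mouse model of gout, which also holds ankle joint, and DRG and spinal cord after monosodium urate (MSU) crystals. They were chosen by tissue and treatment alone, and every gene was joined between the tissues by its Ensembl identifier. Both groups were C57BL/6 mice aged 10 weeks, and their tissue was taken 8 h after 100 µl of phosphate-buffered saline (PBS) had been given at the right ankle. The sample titles call these mice WT, where they call the other group MSU. The treatment label gives untreated, whereas the treatment protocol and the column names give PBS; the protocol was followed here. Neither the ganglion levels and cord segments taken, nor whether each library came from its own animal or from pooled tissue, is stated. P-values therefore measure the spread between libraries, and the tissue cannot be told apart from any batch in which its libraries were prepared.

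A dorsal root ganglion holds the cell bodies of sensory neurons, each wrapped by satellite glia, with an axon that Schwann cells ensheathe and that runs from skin, muscle or joint into the spinal cord. The ganglion has no neuronal dendrites and few synapses, its vessels are more permeable than those of the brain, and its cells descend largely from the neural crest. The spinal cord descends from the neural tube: it holds excitatory, inhibitory and motor neurons, astrocytes, oligodendrocytes that make central myelin, microglia, ependymal cells and vessels with a blood-brain barrier.

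Library totals were 36013926, 22491225 and 17638144 counts in DRG and 20499306, 13526836 and 13689725 counts in spinal cord. Of 17383 genes tested with edgeR, 5729 (33.0%) were higher in DRG and 6010 (34.6%) were higher in spinal cord at a Benjamini-Hochberg adjusted p below 0.05. With a difference of at least 2-fold as well, the counts were 2382 (13.7%) and 3104 (17.9%). The 3 DRG values lay entirely above or below the 3 spinal cord values in 12520 genes (72.0%), so neither a call nor a lack of overlap sets a gene apart here. The median log2 fold change of all genes, DRG over spinal cord, was -0.026, and each list below is read against these shares and this median. The lists hold 564 genes in 572 places, of which 539 passed the filter on low counts; a list's tested count omits the other 33. Levels are in CPM, counts scaled to a common library total, for libraries 1, 2 and 3 in that order. Changes are log2 fold changes (log2FC) of DRG over spinal cord, given ± their standard error, with the adjusted p of edgeR's quasi-likelihood test. A range over the alternative settings covers other fits of the control contrast only, not the contrast in the MSU libraries. In bulk tissue, fewer cells of a type and less RNA per cell cannot be told apart.

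Sensory neuron identity genes were higher in DRG throughout the list. All 16 tested sensory identity factors and markers passed the test in that direction, with a median log2 fold change of 5.22. Avil (ENSMUSG00000025432), an actin-binding protein gene used as a marker of peripheral sensory neurons, had 832, 878 and 963 CPM in DRG, against 0.746, 1.20 and 4.46 CPM in spinal cord (log2FC 8.82 ± 0.48, adjusted p = 5.31e-05). Pou4f1 (ENSMUSG00000048349), a homeodomain factor of sensory neuron differentiation also known as Brn3a, had 254, 206 and 239.6 CPM in DRG, against 13.2, 10.96 and 14.1 CPM in spinal cord (log2FC 4.19 ± 0.11, adjusted p = 2.81e-11). The groups lay far apart for both genes, and spinal cord library 3 held the most Avil of the cord libraries. Prph (ENSMUSG00000023484), which encodes the neurofilament protein peripherin of peripheral neurons, had 1618, 1737 and 1955 CPM in DRG, against 52.0, 62.7 and 60.0 CPM in spinal cord (log2FC 4.93 ± 0.11, adjusted p = 3.28e-12). Its cord level is well above the floor of the assay, and peripherin is, as background, also made by motor neurons. Isl1, a homeodomain factor of sensory and motor neurons, had 107, 114 and 127 CPM in DRG, against 1.73, 2.97 and 1.77 CPM in spinal cord (log2FC 5.78 ± 0.15, adjusted p = 3.73e-11). Prdm12, a chromatin regulator needed for nociceptors in mice and people, had 148, 139.7 and 157 CPM in DRG, against 0.0933, 0 and 0.707 CPM in spinal cord (log2FC 9.22 ± 0.33, adjusted p = 1.34e-07). Phf24 had 2044, 2121 and 2260.0 CPM in DRG, against 265, 280.2 and 257 CPM in spinal cord (log2FC 3.002 ± 0.077, adjusted p = 1.31e-11). Tlx3 and Drgx, named after their values were seen, are, as background, shared with dorsal horn neurons. Their log2 fold changes of 3.59 and 3.16 lay below the list's median. Etv1 (1.70) and Shox2 (2.87), both named after their values were seen, were the smallest differences of the 16.

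Sensory transcripts were not at 0 in every cord library. The 12 genes with the largest differences toward DRG, given further below, summed to 4858 to 5965 CPM in DRG, against 1.399, 5.02 and 16.2 CPM in spinal cord libraries 1 to 3. The cord sums were 0.0266, 0.0954 and 0.308% of the DRG mean and spinal cord library 3 held the most. The 12 genes with the largest differences toward the cord summed to 0.259, 0.137 and 0.0607 CPM in DRG libraries 1 to 3, against 1186 to 1409 CPM in spinal cord. Both sets were picked from these same libraries by the size of their difference, so a low sum in the other tissue follows from the choice. Scn10a (ENSMUSG00000034533), the sodium channel gene Nav1.8 of nociceptors, had 1337, 1377 and 1785 CPM in DRG, against 0.0466, 0 and 4.17 CPM in spinal cord (log2FC 10.24 ± 0.89, adjusted p = 0.000549). Its cord counts came almost wholly from library 3, and its fitted change ran from 9.49 to 15.44 over the alternative settings.

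The promoters of Prph and Scn10a, a gene with a TATA box and one without among those far higher in DRG, are printed from RefSeq (build GRCm38.p6, an older build than the mm39 of the counts), 250 bases before to 50 bases after the start. Prph lies on the plus strand at chr15:99054924-99055223 and Scn10a on the minus strand at chr9:119718983-119719282. Capitals mark TATAAA, the TATA box letters, on either strand; no matches overlap, and the 4 promoters printed here were chosen after the matches were seen.
Prph: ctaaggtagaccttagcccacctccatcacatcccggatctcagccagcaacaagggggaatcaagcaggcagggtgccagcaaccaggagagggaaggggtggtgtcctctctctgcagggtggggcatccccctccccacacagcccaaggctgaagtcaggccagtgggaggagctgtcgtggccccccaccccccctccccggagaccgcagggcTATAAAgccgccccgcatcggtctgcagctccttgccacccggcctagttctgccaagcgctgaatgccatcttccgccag
Scn10a: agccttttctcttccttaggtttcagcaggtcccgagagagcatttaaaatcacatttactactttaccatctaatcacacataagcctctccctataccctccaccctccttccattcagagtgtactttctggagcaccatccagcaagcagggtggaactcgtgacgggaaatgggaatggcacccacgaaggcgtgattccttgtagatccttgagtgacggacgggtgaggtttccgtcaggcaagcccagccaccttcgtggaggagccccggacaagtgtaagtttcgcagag
The Prph window holds 1 TATAAA and the Scn10a window none; neither holds ACAAAG, a SOX core, or TAATTA, a homeodomain core. TATAAA occurs in 3 of the 17 promoter starts found for the sensory identity list (17.6%) and in 13.6% of all 32851 promoter starts.

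**Figure D1:**
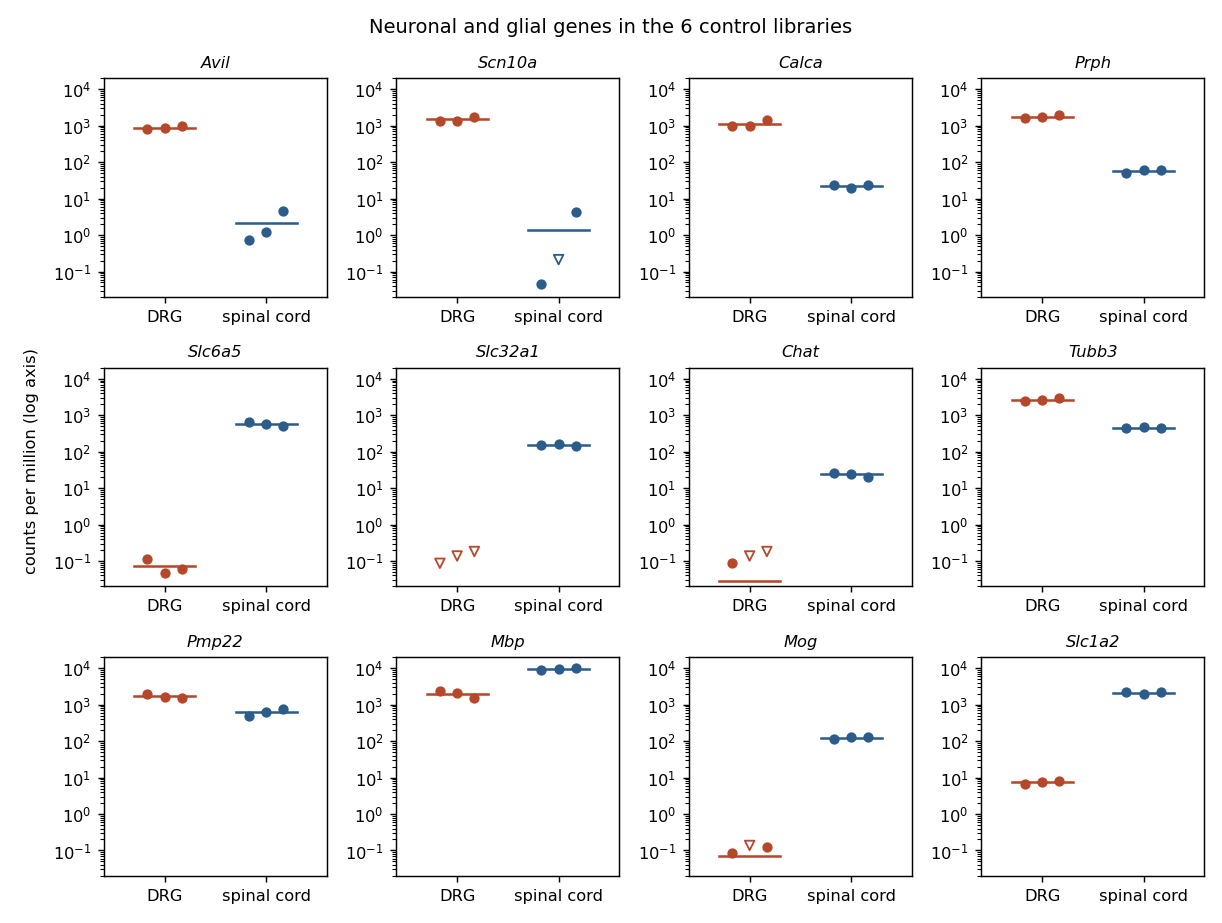
Levels in CPM on a log axis in the 3 DRG and 3 spinal cord control libraries for 12 neuronal and glial genes; points are libraries, lines are means, and open triangles mark 0 counts, drawn at the level of 3 counts. Avil, Scn10a, Calca and Prph lie higher in DRG, Slc6a5, Slc32a1, Chat, Mbp, Mog and Slc1a2 lie higher in spinal cord, and Pmp22 differs by a log2 fold change of 1.43.

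Genes of peptidergic nociceptors, the neurons that release neuropeptides in response to painful stimuli, were higher in DRG in 13 of 14 tested members, with a median of 4.51. Calca (ENSMUSG00000030669), which encodes calcitonin gene-related peptide, had 983, 1005 and 1441 CPM in DRG, against 24.4, 19.1 and 23.1 CPM in spinal cord (log2FC 5.68 ± 0.20, adjusted p = 8.36e-08). Tac1, the substance P precursor, had 174, 177 and 212 CPM in DRG, against 24.2, 22.4 and 29.0 CPM in spinal cord (log2FC 2.90 ± 0.11, adjusted p = 9.13e-10). The cord levels of both peptide genes were far from 0; dorsal horn and motor neurons are known to make some of these peptides. Trpv1, the channel opened by heat and capsaicin, had 129, 134 and 150.0 CPM in DRG, against 0.280, 0 and 0.566 CPM in spinal cord (log2FC 8.90 ± 0.25, adjusted p = 1.56e-09). It was near 0 in the cord and did not overlap between tissues. The cold channel gene Trpm8 (4.80) and the irritant channel gene Trpa1 (6.29) were also higher in DRG, and Sstr2, a somatostatin receptor gene, had a log2FC of 0.13 (adjusted p = 0.468); these 3 were named after their values were seen. Bdnf had 27.3, 24.7 and 67.2 CPM in DRG, against 6.29, 6.93 and 6.43 CPM in spinal cord, so DRG library 3 alone held more than 2 times the level of the other DRG libraries (log2FC 2.59 ± 0.52, adjusted p = 0.00983). Bdnf was also named after its values were seen.

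Genes of nonpeptidergic nociceptors, itch neurons and C-fibre touch neurons were higher in DRG in 17 of 18 tested members, with a median of 4.86. Mrgprd (ENSMUSG00000051207), a receptor gene of nonpeptidergic nociceptors, had 180.0, 178 and 234 CPM in DRG, against 0.0466, 0 and 0.424 CPM in spinal cord (log2FC 10.39 ± 0.35, adjusted p = 1.38e-07). The Mrgpr family holds near-identical copies between which reads can be split, so the single values of such copies are uncertain. P2rx3, an ATP-gated channel gene, had 195, 211 and 276 CPM in DRG, against 1.17, 2.83 and 1.84 CPM in spinal cord (log2FC 6.94 ± 0.28, adjusted p = 1.12e-06). Th, tyrosine hydroxylase, which marks C-fibre low-threshold mechanoreceptors in the ganglion, had 85.9, 89.6 and 101 CPM in DRG, against 3.26, 7.14 and 4.95 CPM in spinal cord (log2FC 4.21 ± 0.22, adjusted p = 1.5e-06). Nppb, the natriuretic peptide gene of itch neurons, had 5.24, 6.16 and 11.3 CPM in DRG, against 0, 0.0707 and 0 CPM in spinal cord, where a single cord count gives a ratio of 342 (95% interval 61.1 to 13530.0) that covers counting error only. The exception was Sst, the somatostatin gene, which marks itch neurons in the ganglion and, mainly, excitatory interneurons in the dorsal horn. Sst, named after its values were seen, had 5.44, 5.75 and 6.98 CPM in DRG, against 95.7, 88.8 and 85.8 CPM in spinal cord (log2FC -3.92 ± 0.10, adjusted p = 1.51e-11).

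Large-fibre genes, those of touch and muscle-sense neurons with thick myelinated axons, went both ways: 9 of 15 tested members were higher in DRG and 5 higher in spinal cord, with a median of 0.59. Piezo2 (ENSMUSG00000041482), the mechanically opened channel of touch and position sense, had 642, 634 and 745 CPM in DRG, against 9.79, 11.3 and 10.0 CPM in spinal cord (log2FC 6.02 ± 0.10, adjusted p = 8.63e-13). The libraries of each tissue lay close together and the tissues did not overlap. The 3 neurofilament genes, which build thick axons, were higher in DRG, with log2 fold changes of 1.58 for Nefh, 1.26 for Nefm and 1.33 for Nefl. Nefm had 4779, 4593 and 5304 CPM in DRG, against 2106, 2064 and 1940.0 CPM in spinal cord. Ntrk3, the neurotrophin 3 receptor, had 395, 341 and 373 CPM in DRG, against 173, 191 and 176 CPM in spinal cord (log2FC 1.04 ± 0.074, adjusted p = 9.3e-08). Ntrk2, the receptor for brain-derived neurotrophic factor that astrocytes also carry, had 213, 214 and 236 CPM in DRG, against 524, 541 and 506 CPM in spinal cord (log2FC -1.25 ± 0.069, adjusted p = 8.62e-09). Ntrk3 was thus higher in DRG and Ntrk2 higher in spinal cord, without overlap in either gene. Pvalb, the parvalbumin gene of muscle-sense neurons and of cord interneurons, had 82.0, 73.1 and 60.4 CPM in DRG, against 72.2, 66.9 and 61.0 CPM in spinal cord (log2FC 0.11, adjusted p = 0.388), and the groups overlapped. Vsnl1, a calcium sensor gene placed on this list, was higher in spinal cord (log2FC -2.17 ± 0.066, adjusted p = 4.45e-11).

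Pan-neuronal genes summed to overlapping levels, 12520 to 13810 CPM in DRG and 12420 to 13560 CPM in spinal cord, yet their members differed in opposite directions. Of 18, 10 were higher in DRG and 8 higher in spinal cord, with a median of 0.39. Tubb3, a neuronal tubulin gene, had 2453, 2618 and 2996 CPM in DRG, against 439.5, 473 and 435 CPM in spinal cord (log2FC 2.58 ± 0.09, adjusted p = 1.3e-10). Map2, a dendritic microtubule protein gene named after its values were seen, had 229, 218 and 224 CPM in DRG, against 1161, 1161 and 1166 CPM in spinal cord (log2FC -2.38 ± 0.066, adjusted p = 2.13e-11). Each of these differences is more than 4-fold and the groups did not overlap. The synaptic gene Snap25 was higher in spinal cord (log2FC -0.68 ± 0.082, adjusted p = 1.22e-05). Rbfox3, which encodes the nuclear marker NeuN, had 201, 204 and 231 CPM in DRG, against 178, 164 and 155 CPM in spinal cord (log2FC 0.35 ± 0.077, adjusted p = 0.00146). Snhg11, a long noncoding RNA gene of neurons, was called higher in spinal cord (-0.57, adjusted p = 0.000172), but over the alternative settings its adjusted p ran from 1.75e-11 to 0.0876.

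Inhibitory spinal interneuron genes were higher in spinal cord in all 17 tested members of 18. Their median was -7.28 as fitted and -6.28 with genes at 0 counts placed at their bound. Slc32a1 (ENSMUSG00000037771), the transporter that loads GABA and glycine into vesicles, had 0 CPM in all 3 DRG libraries, against 155, 161 and 139.9 CPM in spinal cord, which makes it at least 3715-fold higher in spinal cord against a floor of 3 counts over the DRG group. Slc6a5 (ENSMUSG00000039728), the glycine transporter of glycinergic terminals, had 0.115, 0.0456 and 0.0607 CPM in DRG, against 648, 576 and 494 CPM in spinal cord (log2FC -12.67 ± 0.20, adjusted p = 8.63e-13). Gad1 and Gad2 encode the enzymes that make GABA. Gad1 had 0.777, 0.548 and 0.668 CPM in DRG, against 191, 190.3 and 192 CPM in spinal cord (log2FC -8.12 ± 0.11, adjusted p = 1.86e-13). Gad2 had 0.115, 0.0456 and 0.182 CPM in DRG, against 150.2, 163 and 155 CPM in spinal cord (log2FC -10.40 ± 0.15, adjusted p = 3.03e-13). For all 4 genes the DRG libraries held less than 1 CPM, and the cord libraries spread little among themselves. Nos1, the neuronal nitric oxide synthase gene, named after its values were seen, was the smallest difference (-0.30); its adjusted p of 0.00547 ran from 0.000549 to 0.261 over the alternative settings. Gata3, named after its values were seen, had fewer counts than the filter asks for and was not tested.

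Excitatory spinal interneuron genes were higher in spinal cord in 11 of 17 tested members and higher in DRG in 2, with a median of -3.57. Tac2, the neurokinin B precursor gene of dorsal horn neurons, had 0.0576, 0 and 0 CPM in DRG, against 17.4, 26.6 and 24.5 CPM in spinal cord, a cord-over-DRG counting ratio of 807 (95% interval 223 to 6670.0). Grp, the gastrin-releasing peptide gene of itch circuits, had 0.0288, 0.0456 and 0 CPM in DRG, against 5.74, 10.3 and 9.97 CPM in spinal cord, a counting ratio of 301 (95% interval 82.7 to 2492). Neither gene had more than a few DRG counts. Cck had 0.345, 0.137 and 0.546 CPM in DRG, against 31.8, 27.9 and 29.9 CPM in spinal cord (log2FC -6.48 ± 0.23, adjusted p = 1.57e-10). The homeodomain factor gene Lmx1b had 0.863, 1.51 and 1.15 CPM in DRG, against 17.5, 20.02 and 16.97 CPM in spinal cord (log2FC -3.98 ± 0.20, adjusted p = 4.24e-09). Maf, a transcription factor gene of mechanoreceptors and of deep dorsal horn neurons, was higher in DRG (log2FC 0.76 ± 0.10, adjusted p = 2.16e-05). Reln had a log2FC of -0.15 (adjusted p = 0.558). The other member called higher in DRG was Slc17a6, taken up with the transporters below.

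The genes that make and load acetylcholine were at or near 0 in DRG. Of 13 tested members, 9 were higher in spinal cord and 3 higher in DRG, with a median of -1.20. Slc18a3 (ENSMUSG00000100241), the vesicular acetylcholine transporter, had 0 CPM in all 3 DRG libraries, against 49.1, 46.7 and 38.6 CPM in spinal cord and was at least 1108-fold higher in spinal cord. Chat, the enzyme that makes acetylcholine, had 0.0863, 0 and 0 CPM in DRG, against 26.5, 25.04 and 20.9 CPM in spinal cord, a counting ratio of 597 (95% interval 204 to 2897). Slc18a3 lies within an intron of Chat on the same strand, so reads of the 2 genes are hard to separate. Mnx1, a motor neuron homeodomain factor gene, was at least 61.3-fold higher in spinal cord, and the choline transporter gene Slc5a7 had a log2FC of -4.92 ± 0.17 (adjusted p = 1.62e-09). Isl2, on this list as a motor neuron factor, is known also in sensory neurons and had 209, 229 and 232 CPM in DRG, against 2.005, 2.69 and 3.39 CPM in spinal cord (log2FC 6.41 ± 0.13, adjusted p = 2.23e-12). The other 2 members higher in DRG were Anxa4 (1.44) and Prokr1 (5.54), both named after their values were seen.

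**Figure D2:**
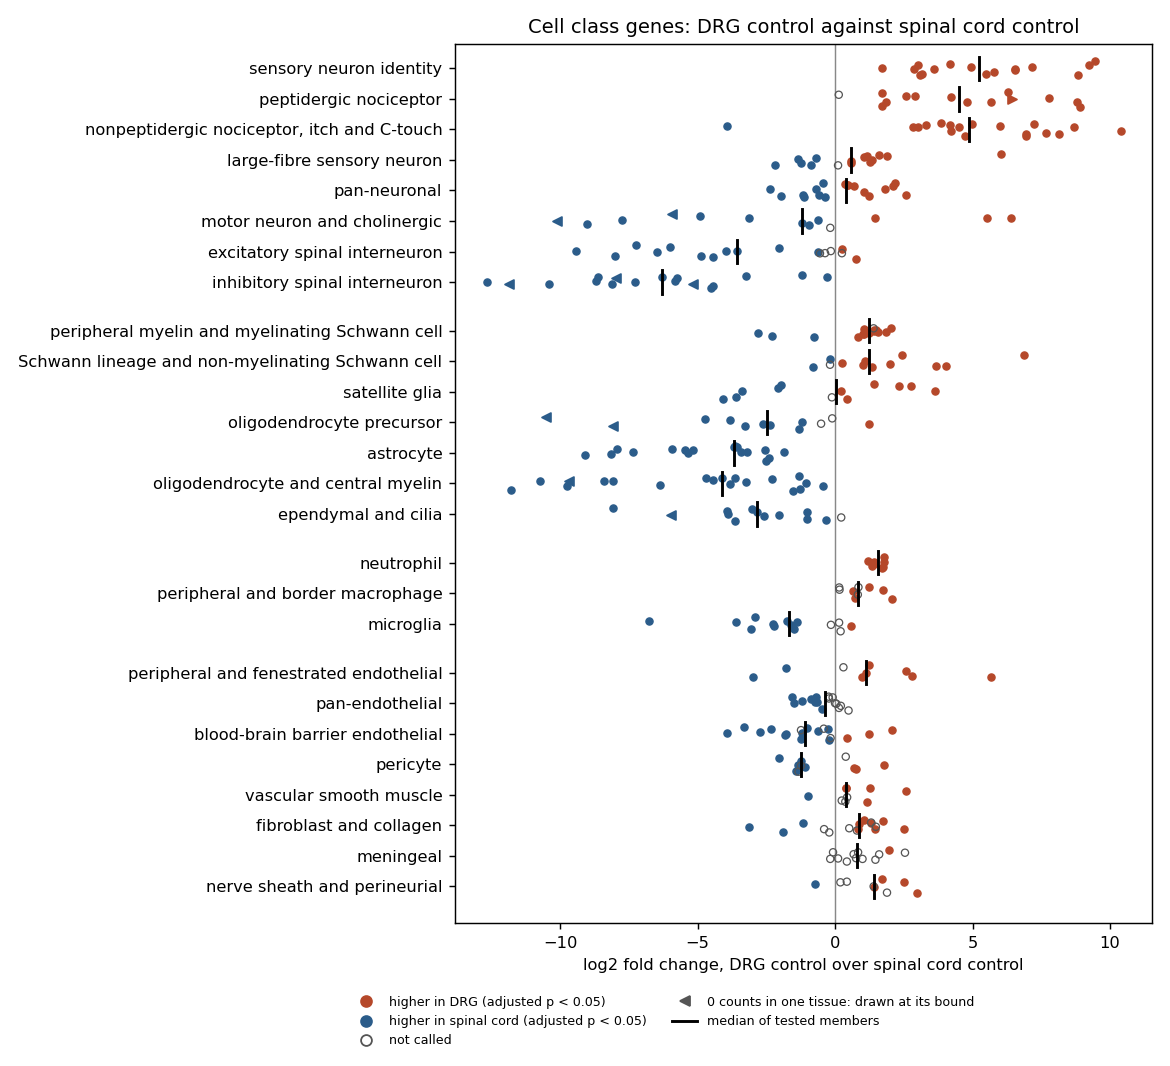
Log2 fold change of DRG control over spinal cord control (x axis) for each tested member of 26 gene lists (rows), with filled points for called members, open points for members not called, triangles for genes at 0 counts in 1 tissue, drawn at their bound, and a black bar at the list's median. Sensory identity and nociceptor lists lie mostly to the right, and spinal interneuron, astrocyte and oligodendrocyte lists mostly to the left. Large-fibre and vascular lists lie on both sides of 0.

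Of the vesicular glutamate transporters, Slc17a7 and Slc17a8 were higher in DRG, while Slc17a6 was high in both tissues. Slc17a7 (ENSMUSG00000070570), the transporter VGLUT1 that marks large sensory neurons in the ganglion, had 231, 221 and 224 CPM in DRG, against 0, 0.0707 and 1.06 CPM in spinal cord (log2FC 9.42 ± 0.44, adjusted p = 1e-05). Slc17a6, the transporter VGLUT2, had 282, 271 and 309.9 CPM in DRG, against 249, 249.7 and 234 CPM in spinal cord (log2FC 0.24, adjusted p = 0.00974), and over the alternative settings its adjusted p ran from 0.000176 to 0.132. Slc17a8, the transporter VGLUT3 of C-fibre touch neurons, named after its values were seen, had 17.4, 19.4 and 20.5 CPM in DRG, against 0.979, 1.42 and 0.778 CPM in spinal cord (log2FC 4.17 ± 0.20, adjusted p = 2.09e-09). Per kilobase of exon, mean DRG levels were 53.3 CPM for Slc17a6, 41.8 for Slc17a7 and 4.04 for Slc17a8. In spinal cord the same levels per kilobase were 45.2, 0.0699 and 0.224 CPM, so Slc17a6 was the main transcript there. VGLUT1 protein in the cord is known to sit largely in terminals whose RNA is made elsewhere.

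Voltage-gated sodium channel genes split evenly, with 6 of 13 higher in DRG, 6 higher in spinal cord and a median of -0.080. Scn11a, the persistent nociceptor channel Nav1.9, had 602, 625 and 826 CPM in DRG, against 0.0466, 0.141 and 1.63 CPM in spinal cord (log2FC 10.32 ± 0.56, adjusted p = 4.97e-05), and cord library 3 again held most of its cord counts. Scn9a, the channel Nav1.7 whose loss abolishes pain in people, had 445, 406 and 459 CPM in DRG, against 16.97, 19.6 and 20.01 CPM in spinal cord (log2FC 4.54 ± 0.09, adjusted p = 1.7e-12). These genes and Scn10a are known chiefly from pain-sensing neurons, and none overlapped between the tissues. Scn8a, the channel Nav1.6 of nodes of Ranvier, had 352, 327 and 355 CPM in DRG, against 508, 509 and 371 CPM in spinal cord (-0.43, adjusted p = 0.00654; 2.45e-07 to 0.0656 over the alternative settings). Scn1a, Scn2a and Scn3a, channels of central neurons and named after their values were seen, were higher in spinal cord, at -1.49, -2.38 and -2.55. Scn4b, a beta subunit gene, had a log2FC of -0.08 (adjusted p = 0.376). Per kilobase of exon, the DRG levels ran from 188 CPM for Scn10a and 115 for Scn11a to 34.2 for Scn9a, 21.8 for Scn8a and 15.4 for Scn1a. In spinal cord Scn1a stood at 43.3 CPM per kilobase and Scn10a at 0.176. Scn4a, the muscle channel gene, named after its values were seen, was also called higher in DRG (log2FC 5.69 ± 0.35, adjusted p = 3.42e-08). Skeletal muscle genes varied widely within each tissue, and their part in the Scn4a level was not tested.

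Receptors of fast synaptic transmission were mostly higher in spinal cord. Of 17 ionotropic glutamate receptor genes, 15 were higher in spinal cord and 2 higher in DRG, with a median of -1.86. Gria1, an AMPA receptor subunit gene, had 21.4, 24.2 and 24.5 CPM in DRG, against 195, 198 and 185 CPM in spinal cord (log2FC -3.05 ± 0.075, adjusted p = 8.68e-12). Gria2, whose edited subunit blocks calcium entry, had 44.1, 45.0 and 40.8 CPM in DRG, against 303, 296 and 273 CPM in spinal cord (log2FC -2.74 ± 0.072, adjusted p = 1.43e-11). Grin1, the subunit common to NMDA receptors, had 99.3, 99.9 and 93.4 CPM in DRG, against 259, 259.9 and 219 CPM in spinal cord (log2FC -1.34 ± 0.077, adjusted p = 1.28e-08). Grin1 was thus well expressed in the ganglion, while Grin2a (-8.89) and Grin2b (-8.50), named here after their values were seen, held under 1 CPM in every DRG library. Grin2a and Grin2b encode some, not all, of the subunits that can complete the receptor. The kainate receptor gene Grik1, known in C fibres, had 318, 318 and 341 CPM in DRG, against 17.8, 22.6 and 20.8 CPM in spinal cord (log2FC 4.01 ± 0.091, adjusted p = 4.81e-12), and the other member higher in DRG was Grik4 (1.13), named after its values were seen. Among 16 GABA-A and glycine receptor genes, 13 were higher in spinal cord and 1 higher in DRG, with a median of -2.39. Glra1, the adult glycine receptor subunit gene, had 0.0863, 0 and 0 CPM in DRG, against 129, 145 and 88.1 CPM in spinal cord, a cord-over-DRG counting ratio of 2971 (95% interval 1016 to 14410.0).

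Receptors for target-derived growth factors were mostly higher in DRG, with 7 of 10 higher there, 3 higher in spinal cord and a median of 1.93. Ret (ENSMUSG00000030110), the signalling receptor of the GDNF family, had 838, 865 and 1175 CPM in DRG, against 141, 135 and 129 CPM in spinal cord (log2FC 2.83 ± 0.13, adjusted p = 2.46e-08). Its co-receptor gene Gfra2, the receptor for neurturin, had 173, 183 and 235 CPM in DRG, against 26.4, 28.01 and 28.6 CPM in spinal cord (log2FC 2.83 ± 0.12, adjusted p = 4.7e-09). Ngfr, the low-affinity neurotrophin receptor p75, had 717, 739.5 and 999.1 CPM in DRG, against 5.83, 6.65 and 8.84 CPM in spinal cord (log2FC 6.87 ± 0.21, adjusted p = 2.38e-08). All 3 genes were highest in DRG library 3, and no library overlapped between the tissues. The 3 members higher in spinal cord were Ntrk2, Gfra4 (-0.76) and Sort1 (-1.83), the last 2 named after their values were seen.

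Opioid genes were mostly higher in spinal cord: 6 of 8 were higher there and 1 higher in DRG, with a median of -1.90. Penk, the enkephalin precursor, had 5.84, 6.62 and 4.07 CPM in DRG, against 103, 129 and 121 CPM in spinal cord (log2FC -4.39 ± 0.15, adjusted p = 1.78e-09). Oprk1, the kappa opioid receptor, had 2.73, 3.65 and 2.73 CPM in DRG, against 14.04, 15.2 and 12.6 CPM in spinal cord (log2FC -2.20 ± 0.17, adjusted p = 2.14e-07). Oprd1, the delta opioid receptor, was the member higher in DRG, with 26.6, 26.8 and 20.6 CPM in DRG, against 12.8, 12.02 and 8.34 CPM in spinal cord (log2FC 1.15 ± 0.16, adjusted p = 6.29e-05). Oprm1, the mu receptor through which morphine acts, had 3.40, 5.89 and 11.1 CPM in DRG, against 7.51, 12.4 and 7.85 CPM in spinal cord (log2FC -0.48 ± 0.46, adjusted p = 0.39), and the DRG libraries spread more than 3-fold and overlapped those of the cord.

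Of 16 postsynaptic scaffold genes, which hold receptors in dendritic spines, 15 were higher in spinal cord and 1 higher in DRG, with a median of -1.78. Dlg4, the scaffold PSD-95, had 151, 158 and 177 CPM in DRG, against 266, 272 and 258 CPM in spinal cord (log2FC -0.71 ± 0.072, adjusted p = 2.42e-06). Camk2b had 84.5, 83.6 and 76.5 CPM in DRG, against 418, 429.5 and 395 CPM in spinal cord (log2FC -2.34 ± 0.07, adjusted p = 3.95e-11). Camk2a, the other main kinase of spines, was the member higher in DRG, with 228, 241 and 286 CPM in DRG, against 158, 174 and 153 CPM in spinal cord (log2FC 0.64 ± 0.09, adjusted p = 5.09e-05). Of 18 presynaptic genes, 8 were higher in DRG and 9 higher in spinal cord, with a median of -0.11. In the MSU libraries 3 of the 18 were higher in DRG and 11 higher in spinal cord, with a median of -0.77, and the difference between the sets was not tested. Sv2c, a vesicle protein gene, had 939, 859 and 1073 CPM in DRG, against 533, 494 and 475 CPM in spinal cord (log2FC 0.93 ± 0.088, adjusted p = 1.26e-06). Vamp1 had 671, 664 and 636 CPM in DRG, against 1381, 1331 and 1280.0 CPM in spinal cord (log2FC -1.02 ± 0.068, adjusted p = 4.98e-08). Sv2a, named after its values were seen, was the vesicle gene farthest toward spinal cord (-2.80). Calls of Syp (-0.45) and Cplx1 (-0.27) toward the cord were lost under at least 1 alternative setting, with adjusted p up to 0.0796 and 0.0706. For these, the lowest adjusted p over the settings was 2.26e-07 and 0.000161.

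Astrocyte genes were higher in spinal cord in all 17 members, with a median of -3.67. Slc1a2 (ENSMUSG00000005089), the glutamate transporter that clears synapses, had 6.76, 7.53 and 8.26 CPM in DRG, against 2182, 1966 and 2228 CPM in spinal cord (log2FC -8.16 ± 0.11, adjusted p = 1.86e-13). Aqp4, the water channel of astrocyte endfeet, had 12.4, 11.6 and 12.4 CPM in DRG, against 424, 478 and 564 CPM in spinal cord (log2FC -5.33 ± 0.12, adjusted p = 7.25e-12). Gfap, the astrocyte intermediate filament, had 3.11, 2.60 and 4.49 CPM in DRG, against 512, 938 and 941 CPM in spinal cord (log2FC -7.91 ± 0.42, adjusted p = 3.7e-05), and cord library 1 stood below the other cord libraries. Aldh1l1 had 12.7, 12.51 and 9.41 CPM in DRG, against 62.4, 60.0 and 62.3 CPM in spinal cord (log2FC -2.40 ± 0.11, adjusted p = 1.29e-09), so its DRG level was not near 0.

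Oligodendrocyte and central myelin genes were higher in spinal cord in all 19 members, with a median of -4.11, and fell into 2 kinds by their DRG level. Mog (ENSMUSG00000076439), a surface protein found in central myelin, had 0.0863, 0 and 0.121 CPM in DRG, against 116, 127 and 134 CPM in spinal cord (log2FC -10.72 ± 0.20, adjusted p = 1.41e-12). Opalin, a central myelin membrane protein gene, had 0 CPM in all 3 DRG libraries, against 34.5, 35.9 and 28.9 CPM in spinal cord and was at least 812-fold higher in spinal cord. Mobp had 3.63, 1.78 and 1.396 CPM in DRG, against 2025, 1934 and 2444 CPM in spinal cord (log2FC -9.74 ± 0.31, adjusted p = 3.52e-07). These genes were near 0 in the ganglion, unlike those of myelin proteins that Schwann cells share. Mbp, myelin basic protein, had 2329, 2094 and 1559 CPM in DRG, against 9106, 9723 and 10260.0 CPM in spinal cord (log2FC -2.28 ± 0.14, adjusted p = 9.06e-08). Cnp had 256, 253 and 219 CPM in DRG, against 646, 724 and 757 CPM in spinal cord (log2FC -1.55 ± 0.085, adjusted p = 7.86e-09). The smallest of the whole list was Aspa (-0.43, adjusted p = 0.048), named after its values were seen, whose adjusted p ran from 0.000119 to 0.16 over the alternative settings. Olig1, a lineage factor gene, had 0.0576, 0.0913 and 0 CPM in DRG, against 216, 210.4 and 209.9 CPM in spinal cord (log2FC -11.77 ± 0.16, adjusted p = 1.86e-13).

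Oligodendrocyte precursor genes were higher in spinal cord in 9 of 12 tested members and higher in DRG in 1, with a median of -2.49. Olig2 (ENSMUSG00000039830), the factor that specifies the lineage, had 0 CPM in all 3 DRG libraries, against 57.0, 61.4 and 64.6 CPM in spinal cord and was at least 1473-fold higher in spinal cord. Neu4 was at 0 counts in DRG and at least 271-fold higher in spinal cord. Markers that other cells share were less far apart. Pdgfra, a growth factor receptor of precursors and also of fibroblasts, had 23.8, 25.8 and 12.99 CPM in DRG, against 46.0, 52.7 and 59.1 CPM in spinal cord (log2FC -1.31 ± 0.26, adjusted p = 0.00537). Cspg4, also made by pericytes, had 25.9, 27.2 and 14.99 CPM in DRG, against 37.0, 34.9 and 25.6 CPM in spinal cord (log2FC -0.51, adjusted p = 0.126). The member higher in DRG was Matn4 (1.25), named after its values were seen.

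The promoters of Opalin (minus strand, chr19:41077064-41077363) and Olig2 (plus strand, chr16:91225300-91225599) are shown as promoters of genes with 0 counts in DRG, one with SOX core matches and one without; source, build and window are as for Prph. Capitals mark ACAAAG, the SOX core bound by factors such as Sox10 of the myelinating lineages, in Opalin, and TATAAA in Olig2, on either strand.
Opalin: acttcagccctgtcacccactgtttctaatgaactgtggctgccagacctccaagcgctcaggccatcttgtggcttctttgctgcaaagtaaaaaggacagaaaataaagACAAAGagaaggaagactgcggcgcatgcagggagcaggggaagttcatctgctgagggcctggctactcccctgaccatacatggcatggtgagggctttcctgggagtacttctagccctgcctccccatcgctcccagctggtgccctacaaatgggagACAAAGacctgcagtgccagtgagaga
Olig2: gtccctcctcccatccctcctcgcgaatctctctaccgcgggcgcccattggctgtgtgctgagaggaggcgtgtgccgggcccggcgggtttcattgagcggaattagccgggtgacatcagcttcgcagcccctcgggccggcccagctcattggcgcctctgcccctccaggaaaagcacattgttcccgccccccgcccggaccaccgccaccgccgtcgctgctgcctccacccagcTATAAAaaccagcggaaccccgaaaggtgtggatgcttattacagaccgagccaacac
The Opalin window holds 2 ACAAAG matches and the Olig2 window none. ACAAAG occurs in 5 of 15 promoter starts found for the oligodendrocyte list (33.3%), in 2 of 22 for the peripheral myelin list (9.09%) and in 18.7% of all promoter starts. TAATTA, in 5.29% of all promoter starts, was in none of the 4 windows printed.

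Peripheral glia were described by 3 lists, and none of them was absent from the cord. Of 15 tested peripheral myelin and myelinating Schwann cell genes, 11 were higher in DRG and 3 higher in spinal cord, with a median of 1.23. Pmp22 (ENSMUSG00000018217), a peripheral myelin membrane protein gene, had 1922, 1674 and 1487 CPM in DRG, against 496, 624 and 764 CPM in spinal cord (log2FC 1.43 ± 0.16, adjusted p = 0.000103). Prx, the periaxin of Schwann cells, had 695, 578 and 414 CPM in DRG, against 243, 286 and 315 CPM in spinal cord (log2FC 1.00 ± 0.21, adjusted p = 0.00632). In both genes DRG library 1 was highest and DRG library 3 lowest of the ganglion libraries, and neither overlapped with the cord. Egr2, the factor that drives Schwann cell myelination, had 27.0, 22.9 and 21.5 CPM in DRG, against 11.2, 10.6 and 12.4 CPM in spinal cord (log2FC 1.07 ± 0.12, adjusted p = 6.21e-06). Per kilobase of exon, Pmp22 stood at 719.6 CPM and Mbp at 235 CPM in DRG, whereas Pmp22 stood at 267 CPM and Mbp at 1145 CPM in spinal cord. Schwann cell transcripts were therefore measured in every cord library; whether spinal roots were left on the cord is not stated. The members higher in spinal cord were Pou3f1 (-0.77), Gjb1 (-2.30) and Bcas1 (-2.79), named after their values were seen; oligodendrocytes are known to express all 3.

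Schwann lineage genes were higher in DRG in 9 of 12 tested members and higher in spinal cord in 2, with a median of 1.22. Scn7a, a sodium channel relative gene of non-myelinating Schwann cells, had 557, 519 and 500.1 CPM in DRG, against 51.5, 29.0 and 41.1 CPM in spinal cord (log2FC 3.68 ± 0.20, adjusted p = 5.67e-06). L1cam, an adhesion gene of axons and non-myelinating Schwann cells, had 724, 742 and 798 CPM in DRG, against 139.6, 158 and 127 CPM in spinal cord (log2FC 2.42 ± 0.087, adjusted p = 1.68e-10). Erbb3, the neuregulin receptor of the lineage, had 93.5, 87.2 and 80.4 CPM in DRG, against 42.9, 39.8 and 46.8 CPM in spinal cord (log2FC 1.01 ± 0.084, adjusted p = 3.67e-07). Sox10, a factor shared by Schwann cells and oligodendrocytes and named after its values were seen, had 116, 104 and 94.3 CPM in DRG, against 114, 115 and 129 CPM in spinal cord (log2FC -0.18, adjusted p = 0.0677), and the groups overlapped. Aatk was called higher in spinal cord at a small difference (-0.19), with an adjusted p of 0.0249 that ran from 0.00161 to 0.342 over the alternative settings.

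Satellite glia genes split, with 6 of 12 higher in DRG, 5 higher in spinal cord and a median of 0.051. Fabp7, a fatty acid binding protein gene of satellite glia, had 222, 216 and 210.0 CPM in DRG, against 28.3, 35.7 and 33.1 CPM in spinal cord (log2FC 2.75 ± 0.085, adjusted p = 5.14e-11). Cdh19, a cadherin gene of the Schwann and satellite lineage, had 133, 109 and 98.2 CPM in DRG, against 43.3, 35.2 and 47.8 CPM in spinal cord (log2FC 1.43 ± 0.14, adjusted p = 1.4e-05). Apoe, a lipid carrier gene of glia and macrophages, had 1965, 2296 and 2361 CPM in DRG, against 1431, 1673 and 1808 CPM in spinal cord (log2FC 0.43 ± 0.10, adjusted p = 0.00222). Kcnj10 and Glul, both known in astrocytes too, were among the members higher in spinal cord. The part of astrocytes in their values was not tested. Kcnj10, the potassium channel Kir4.1, had 69.3, 70.7 and 81.5 CPM in DRG, against 769, 721 and 823 CPM in spinal cord (log2FC -3.39 ± 0.088, adjusted p = 1.34e-11). Glul, glutamine synthetase, had 319, 330.3 and 324 CPM in DRG, against 1383, 1325 and 1429 CPM in spinal cord (log2FC -2.09 ± 0.068, adjusted p = 7.84e-11). Ednrb, an endothelin receptor gene, had 73.2, 75.8 and 79.3 CPM in DRG, against 80.6, 81.1 and 85.3 CPM in spinal cord (log2FC -0.11, adjusted p = 0.14); its groups did not overlap, but it did not pass the test.

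Ependymal and motile cilia genes were higher in spinal cord in 12 of 13 tested members of 14, with a median of -2.85. Ccdc153 had 0, 0.0913 and 0 CPM in DRG, against 10.2, 8.63 and 7.92 CPM in spinal cord, a cord-over-DRG counting ratio of 333 (95% interval 91.7 to 2759), and Ak7, a cilia gene, had 0.662, 0.593 and 1.09 CPM in DRG, against 12.8, 12.7 and 8.84 CPM in spinal cord (log2FC -3.92 ± 0.26, adjusted p = 4.74e-08). Foxj1, the regulator of motile cilia, had 27.9, 26.2 and 33.0 CPM in DRG, against 35.6, 34.5 and 38.3 CPM in spinal cord, so its DRG level was close to the cord level (log2FC -0.32, adjusted p = 0.0121, 0.00108 to 0.207 over the alternative settings).

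Resident immune cells of the tissues differed in their marker genes. Microglia genes were higher in spinal cord in 10 of 14 tested members and higher in DRG in 1, with a median of -1.67. Sall1, the factor that keeps microglia identity, had 0.489, 0.548 and 0.243 CPM in DRG, against 44.1, 49.8 and 53.2 CPM in spinal cord (log2FC -6.75 ± 0.17, adjusted p = 1.31e-11). P2ry12, the receptor that guides microglial processes, had 5.58, 6.89 and 5.28 CPM in DRG, against 17.5, 18.5 and 17.8 CPM in spinal cord (log2FC -1.60 ± 0.14, adjusted p = 5.63e-07). Tmem119 had 4.75, 6.21 and 2.79 CPM in DRG, against 11, 9.90 and 15.98 CPM in spinal cord (log2FC -1.40 ± 0.28, adjusted p = 0.00136). Csf1r, the growth factor receptor of microglia and macrophages, had 24.1, 25.1 and 13.1 CPM in DRG, against 67.2, 79.3 and 66.1 CPM in spinal cord (log2FC -1.75 ± 0.25, adjusted p = 0.00108). P2ry12 and Tmem119 were thus measurable in the ganglion, and DRG library 3 was the lowest ganglion library for all 4 genes. Olfml3 was the member higher in DRG (log2FC 0.59 ± 0.12, adjusted p = 0.000933).

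Macrophage genes of nerve and tissue borders were higher in DRG in 5 of 9 tested members of 12, with a median of 0.83; the other 4 were not called. Lyve1, a marker of perivascular macrophages, had 6.53, 6.62 and 8.19 CPM in DRG, against 0.793, 1.84 and 2.62 CPM in spinal cord (log2FC 2.07 ± 0.33, adjusted p = 0.000186). Mrc1, the mannose receptor CD206, had 18.2, 17.7 and 8.44 CPM in DRG, against 4.71, 11.2 and 9.26 CPM in spinal cord (log2FC 0.85, adjusted p = 0.133). Cd163 had a log2FC of 0.15 (adjusted p = 0.662); both overlapped. The count of 5 was 8 without DRG library 3, 3 without DRG library 1 and 2 without spinal cord library 1. Neutrophil genes were higher in DRG in all 8 members, with a median of 1.57, and summed to 137 to 242 CPM in DRG, against 55.3 to 69.3 CPM in spinal cord. Ngp had 53.3, 38.3 and 48.3 CPM in DRG, against 11.5, 15.8 and 14.2 CPM in spinal cord (log2FC 1.76 ± 0.15, adjusted p = 1.46e-06). S100a9, an alarmin gene of neutrophils, had 69.8, 36.1 and 50.9 CPM in DRG, against 18.9, 21.6 and 19.1 CPM in spinal cord (log2FC 1.403 ± 0.25, adjusted p = 0.00312). The highest adjusted p over the alternative settings was 0.0483 for Ngp and 0.199 for S100a9, against lowest values of 2.56e-64 and 8.74e-14. The count of 8 was 5 without spinal cord library 2, and edgeR called 0 of the 8 in the MSU libraries, with 0 at an unadjusted p below 0.05. Of 5 erythroid genes, 4 haemoglobin genes and the haem synthesis gene Alas2, 3 were higher in DRG, and this count was 1 without spinal cord library 1 and 1 without spinal cord library 2. The part of blood in the neutrophil values was not tested.

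Vessels were measured by 5 lists, whose members differed in both directions. Of 16 genes common to endothelium, 8 were higher in spinal cord and 8 were not called, with a median of -0.36. The 16 genes summed to 269 to 283 CPM in DRG, against 337 to 505 CPM in spinal cord. Pecam1 (ENSMUSG00000020717), the adhesion protein CD31, had 24.2, 24.6 and 27.0 CPM in DRG, against 29.4, 28.7 and 21.99 CPM in spinal cord (log2FC -0.087 ± 0.11, adjusted p = 0.516). Cdh5, the endothelial cadherin, had 27.5, 24.5 and 19.6 CPM in DRG, against 23.4, 24.9 and 21.2 CPM in spinal cord (log2FC 0.048 ± 0.12, adjusted p = 0.749). Tie1 had 13.3, 15.8 and 13.8 CPM in DRG, against 21.4, 17.1 and 11.2 CPM in spinal cord (log2FC -0.22, adjusted p = 0.356), so its groups overlapped as well. Flt1, a receptor for vascular endothelial growth factor, had 30.9, 29.0 and 29.7 CPM in DRG, against 100.0, 79.0 and 70.4 CPM in spinal cord (log2FC -1.48 ± 0.12, adjusted p = 6.5e-07). The endothelial phosphatase gene Ptprb had 22.4, 21.8 and 25.1 CPM in DRG, against 80.3, 71.1 and 53.6 CPM in spinal cord (log2FC -1.57 ± 0.14, adjusted p = 3.24e-06). Spinal cord library 1 was the highest and library 3 the lowest cord library for Flt1, Ptprb and Tie1.

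Blood-brain barrier genes were higher in spinal cord in 12 of 18 tested members and higher in DRG in 3, with a median of -1.10. The summed level of the 18 genes went the other way, at 3318 to 3537 CPM in DRG, against 1736 to 2123 CPM in spinal cord. A sum follows its most abundant members, and only 3 of the 18 were higher in DRG. It therefore does not describe the list as a whole. Cldn5 (ENSMUSG00000041378), the main tight junction claudin of brain vessels, had 24.2, 22.3 and 18.2 CPM in DRG, against 61.7, 52.5 and 38.2 CPM in spinal cord (log2FC -1.23 ± 0.18, adjusted p = 0.000416). Slco1c1, the thyroid hormone transporter of brain endothelium, had 3.51, 4.97 and 4.13 CPM in DRG, against 54.4, 39.4 and 30.7 CPM in spinal cord (log2FC -3.32 ± 0.24, adjusted p = 5.93e-06). Slc2a1, the glucose transporter GLUT1, had 45.1, 44.1 and 45.2 CPM in DRG, against 114, 102 and 92.6 CPM in spinal cord (log2FC -1.20 ± 0.081, adjusted p = 5.58e-08). These 3 genes were lower in every DRG library, though Cldn5 and Slc2a1 stayed well above 0 in the ganglion. Mfsd2a, the lipid transporter of barrier vessels, had 24.8, 26.1 and 22.5 CPM in DRG, against 27.8, 27.0 and 33.7 CPM in spinal cord (log2FC -0.27, adjusted p = 0.0387, 0.00709 to 0.388 over the alternative settings). Slc7a5 was called at a similarly small difference (-0.23, adjusted p = 0.0158, 0.00072 to 0.216 over the alternative settings). The members higher in DRG were Spock2 (log2FC 1.24 ± 0.079, adjusted p = 3.42e-08), a proteoglycan gene that neurons express too, Tfrc (log2FC 0.43 ± 0.11, adjusted p = 0.00484), the transferrin receptor of most dividing or iron-importing cells, and Abcg2. Abcg2, an efflux transporter gene named after its values were seen, had 105, 101 and 94.3 CPM in DRG, against 26.2, 22.2 and 22.1 CPM in spinal cord (log2FC 2.09 ± 0.086, adjusted p = 5.93e-10).

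Genes of permeable peripheral vessels were higher in DRG in 6 of 9 tested members of 10 and higher in spinal cord in 2, with a median of 1.11. Ackr1, the chemokine-binding receptor of venules, had 86.0, 78.7 and 91.4 CPM in DRG, against 34.2, 38.05 and 35.4 CPM in spinal cord (log2FC 1.25 ± 0.08, adjusted p = 3.41e-08). Plvap, which forms the diaphragms of fenestrated endothelium, had 12.52, 15.9 and 17.2 CPM in DRG, against 13.1, 11.9 and 11.7 CPM in spinal cord (log2FC 0.30, adjusted p = 0.0694), and its groups overlapped. Rgcc had 29.9, 31.0 and 27.5 CPM in DRG, against 13.2, 13.4 and 14.4 CPM in spinal cord (log2FC 1.11 ± 0.10, adjusted p = 5.68e-07). The members higher in spinal cord were Tmem252 (-1.78), named after its values were seen, and Aplnr, the apelin receptor, with 1.29, 1.37 and 0.971 CPM in DRG, against 2.98, 12.9 and 13.5 CPM in spinal cord (log2FC -2.97, adjusted p = 0.00733, 9.39e-08 to 0.128 over the alternative settings), where cord library 1 stood far below the other cord libraries.

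Mural cells, the pericytes and smooth muscle around vessels, also went both ways. Pericyte genes were higher in DRG in 3 of 11 members and higher in spinal cord in 5, with a median of -1.22. Over all genes tested, 33.0% and 34.6% were called in these directions. The summed level of the 11 genes was higher in DRG, at 516 to 569.3 CPM, against 350.8 to 478.5 CPM in spinal cord. Mcam alone held 222 to 234 CPM of the DRG sums and 53.8 to 72.7 CPM of the cord sums. The sum therefore does not describe the list as a whole. Pdgfrb, the receptor that recruits pericytes, had 50.8, 59.8 and 48.9 CPM in DRG, against 38, 30.5 and 24.7 CPM in spinal cord (log2FC 0.77 ± 0.15, adjusted p = 0.00119). Mcam, an adhesion gene of mural cells that Schwann cells and neurons also express, had 222, 234 and 223 CPM in DRG, against 72.7, 71.7 and 53.8 CPM in spinal cord (log2FC 1.77 ± 0.10, adjusted p = 4.08e-08). Rgs5 had a log2FC of 0.39 (adjusted p = 0.197) and Vtn of -1.33 (adjusted p = 0.0816). Abcc9, the potassium channel partner SUR2 of brain pericytes, named after its values were seen, was higher in spinal cord, with 5.04, 5.11 and 4.13 CPM in DRG, against 25.6, 19.0 and 14.6 CPM in spinal cord (log2FC -2.05 ± 0.20, adjusted p = 2.71e-06). Smooth muscle genes were higher in DRG in 5 of 9 tested members of 10 and higher in spinal cord in 1, with a median of 0.40. Smtn, which encodes smoothelin of contractile smooth muscle, had 61.5, 61.4 and 49.7 CPM in DRG, against 27.9, 26.3 and 23.6 CPM in spinal cord (log2FC 1.15 ± 0.10, adjusted p = 7.37e-07). Acta2, the smooth muscle actin gene, was called at 0.39 (adjusted p = 0.0464) although its groups overlapped and its adjusted p ran from 0.00212 to 0.169 over the alternative settings.

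**Figure D3:**
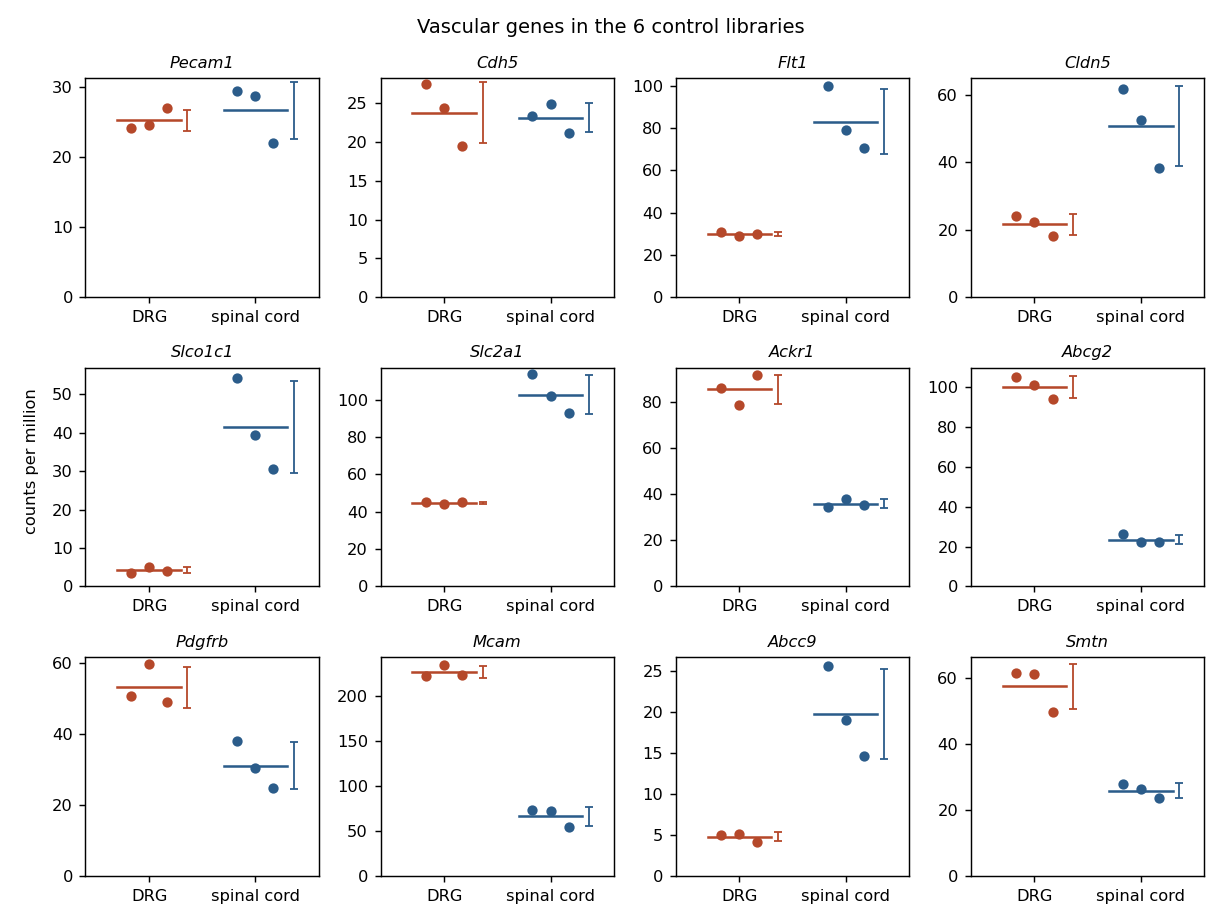
Levels in CPM of 12 vascular genes in the 3 DRG and 3 spinal cord control libraries, on axes that start at 0; points are libraries, lines are means and bars are SD (n = 3). Pecam1 and Cdh5 overlap between the tissues, Flt1, Cldn5, Slco1c1, Slc2a1 and Abcc9 lie higher in spinal cord, and Ackr1, Abcg2, Pdgfrb, Mcam and Smtn lie higher in DRG.

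In connective tissue genes, libraries of the same tissue differed widely. Nerve sheath and perineurial genes were higher in DRG in 4 of 9 tested members of 10 and higher in spinal cord in 1, with a median of 1.43. Sfrp5, a WNT antagonist gene, had 111, 109 and 117 CPM in DRG, against 16.5, 20.1 and 22.6 CPM in spinal cord (log2FC 2.52 ± 0.10, adjusted p = 5.42e-10). Moxd1 had 41.7, 48.5 and 55.4 CPM in DRG, against 2.29, 7.78 and 8.98 CPM in spinal cord (log2FC 2.996, adjusted p = 0.00427, 5.91e-08 to 0.0755 over the alternative settings), and Cldn1, the claudin of the perineurial barrier, had 24.6, 20.1 and 10.1 CPM in DRG, against 2.94, 7.85 and 6.79 CPM in spinal cord (log2FC 1.69, adjusted p = 0.0302, 0.00113 to 0.147). Tjp1, the junction protein ZO-1 that most epithelia and endothelia make, was the member higher in spinal cord (log2FC -0.74 ± 0.082, adjusted p = 6.05e-06). Fibroblast and collagen genes were higher in DRG in 7 of 16 members and higher in spinal cord in 3, with a median of 0.86. Col3a1, a fibrillar collagen gene, had 148, 165 and 85.2 CPM in DRG, against 33.5, 37.98 and 49.4 CPM in spinal cord (log2FC 1.73 ± 0.32, adjusted p = 0.00652). Col1a1 had 153, 154 and 77.6 CPM in DRG, against 31.4, 56.9 and 68.4 CPM in spinal cord (log2FC 1.31, adjusted p = 0.0538). DRG library 3 was the lowest ganglion library for both. The count of 7 was 3 without DRG library 1, DRG library 2 or spinal cord library 1, and 1 without spinal cord library 2.

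Meningeal genes gave 1 call of 12, higher in DRG, with a median of 0.80. Ptgds, a prostaglandin synthase gene of the arachnoid and of oligodendrocytes, had 357, 896 and 48.9 CPM in DRG, against 321, 496 and 656 CPM in spinal cord (log2FC -0.18 ± 1.07, adjusted p = 0.898). Slc47a1 had 20.9, 36.3 and 11.1 CPM in DRG, against 0.420, 3.40 and 8.70 CPM in spinal cord (log2FC 2.54, adjusted p = 0.0889), and the called member was Slc22a2 (1.95), named after its values were seen. The 12 genes summed to 442, 1026 and 81.2 CPM in DRG libraries 1 to 3 and to 344, 552 and 725 CPM in spinal cord libraries 1 to 3. Ptgds alone made up most of this sum in every library. The meningeal sum, carried mainly by that gene, thus differed more than 10-fold among ganglion libraries. The part of meninges in the fibroblast, sheath and macrophage values was not tested. The count of meningeal genes higher in DRG was 5 without DRG library 3. Central matrix and perineuronal net genes differed mostly one way, with 7 of 10 higher in spinal cord, 2 higher in DRG and a median of -1.61. Bcan, the brevican core protein, had 90.7, 94.0 and 105 CPM in DRG, against 444.1, 388 and 402 CPM in spinal cord (log2FC -2.09 ± 0.081, adjusted p = 3.15e-10). Ptprz1, a receptor phosphatase gene, had a log2FC of -1.56.

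Hox genes, which mark position along the body axis, were measured in both tissues, and the most posterior ones only in spinal cord at more than trace levels. Of 37 tested of 39, 27 were higher in spinal cord and 2 higher in DRG, with a median of -1.37. Hoxb8 had 14.1, 13.6 and 11.6 CPM in DRG, against 179, 157 and 155 CPM in spinal cord (log2FC -3.63 ± 0.094, adjusted p = 1.32e-11). Hoxc10, of lumbar segments, had 6.99, 6.43 and 6.01 CPM in DRG, against 47.0, 45.8 and 47.0 CPM in spinal cord (log2FC -2.84 ± 0.094, adjusted p = 8.65e-11). Hoxa9 had 57.4, 54.5 and 52.0 CPM in DRG, against 58.0, 54.3 and 48.6 CPM in spinal cord (log2FC 0.027, adjusted p = 0.79), and the groups overlapped. Genes of paralog groups 12 and 13, which mark sacral and tail levels, had 0 counts in every DRG library: Hoxc12 was at least 598-fold higher in spinal cord, with 30.6, 19.4 and 20.4 CPM there. Hoxd1, which is known in nociceptors of mice, had 25.5, 22.4 and 26.9 CPM in DRG, against 1.03, 1.84 and 1.27 CPM in spinal cord (log2FC 4.21 ± 0.19, adjusted p = 1.13e-09); it and Hoxc6 (0.53) were the 2 higher in DRG and were named after their values were seen. Since the ganglion levels and cord segments taken are not stated, axial level and tissue cannot be told apart for these genes. Neural tube patterning factors were higher in spinal cord in all 11 tested members of 14, with a median of -6.13 as fitted and -5.40 with genes at 0 counts at their bound. Pax6 had 0.173, 0.0913 and 0.121 CPM in DRG, against 10.1, 8.98 and 11.2 CPM in spinal cord (log2FC -6.15 ± 0.28, adjusted p = 1.58e-09). Dbx2 had 0.374, 0.320 and 0.303 CPM in DRG, against 26.4, 22.9 and 23.6 CPM in spinal cord (log2FC -6.13 ± 0.18, adjusted p = 3.73e-11).

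**Figure D4:**
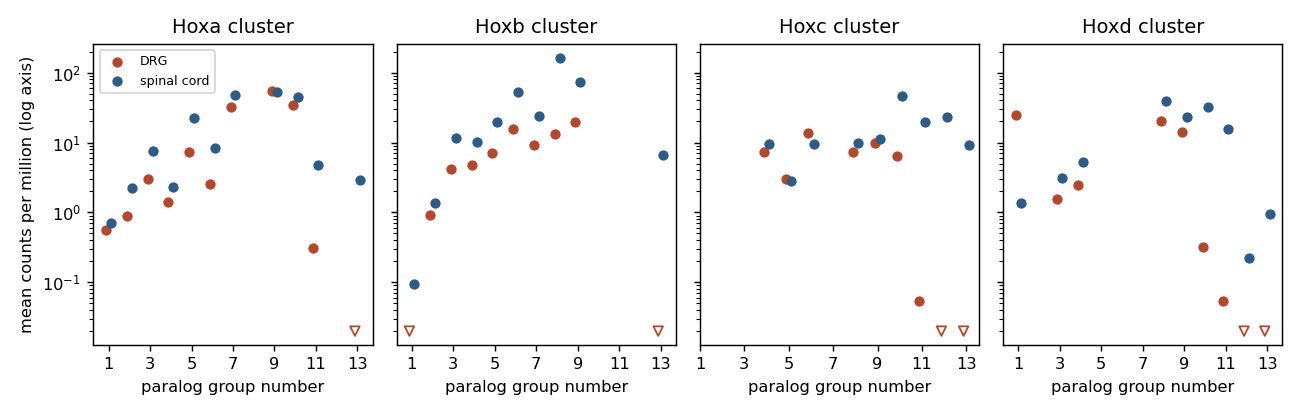
Mean CPM (log axis) of each Hox gene by paralog group number, in DRG and spinal cord control libraries (n = 3 each), with 1 panel per cluster; open triangles mark genes at 0 counts in every library of the tissue. The tissues lie close for Hoxc4 to Hoxc9 and for Hoxa9, and DRG is at or near 0 from group 11 on.

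The largest differences were read without a list, among called genes with at least 10 CPM in the higher tissue, leaving out predicted gene models. Toward DRG the 12 were Mrgprx3-ps, Mrgprb4, Mrgprd, Scn11a, Scn10a, Tmem233, Slc17a7, Tmem45b, Tlx2, Prdm12, Pirt and Trarg1. The Mrgpr genes hold 3 of these places; Mrgprx3-ps, a pseudogene of that family, had 31.7, 31.6 and 38.2 CPM in DRG, against 0 CPM in all 3 spinal cord libraries and was at least 549-fold higher in DRG. Pirt, a regulator of Trpv1 in sensory neurons, had 1048, 1031 and 1171 CPM in DRG, against 0.466, 2.83 and 3.18 CPM in spinal cord (log2FC 9.11 ± 0.44, adjusted p = 2.33e-05). Tlx2, a homeobox gene of neural crest derivatives, had 84.7, 87.4 and 102 CPM in DRG, against 0.0466, 0 and 0.424 CPM in spinal cord (log2FC 9.27 ± 0.31, adjusted p = 8.93e-09). Trarg1, known in fat and muscle for its part in glucose transporter traffic, had 632, 670.1 and 762 CPM in DRG, against 0.513, 1.27 and 2.55 CPM in spinal cord (log2FC 9.01 ± 0.33, adjusted p = 1.17e-06). Adipoq, a defining adipocyte gene, was at most 0.576 CPM in any control library. Skeletal muscle genes summed to 24.1 to 255 CPM in DRG and to 32.9 to 272 CPM in spinal cord. The part of fat or muscle in the Trarg1 level was not tested. Toward spinal cord the 12 were Slc32a1, Olig2, Slc18a3, Slc30a3, Slc6a5, Opalin, Sall3, Hoxc12, Olig1, Nipal4, Glra1 and Neu4, of which 9 had 0 counts in DRG. Slc30a3, the transporter that loads zinc into synaptic vesicles, had 0 CPM in all 3 DRG libraries, against 41.2, 46.0 and 42.9 CPM in spinal cord and was at least 1049-fold higher in spinal cord. Sall3, a zinc finger factor gene, was at least 678-fold higher, and Nipal4, a magnesium transporter gene, at least 380.0-fold.

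The same tissue contrast was repeated in 3 DRG and 3 spinal cord libraries taken 8 h after MSU crystals, which share no library with the controls. There 5753 (32.4%) of 17756 tested genes were higher in DRG and 5897 (33.2%) higher in spinal cord. Of the 5292 genes called with at least a 2-fold difference in controls and tested in both sets, 4773 (90.2%) were called in the same direction, 9 in the opposite direction and 510 were not called. Of 526 listed genes tested in both sets, 488 had the same sign. All sensory identity genes and all astrocyte genes were called in their control direction again, with medians of 3.66 and -4.31. Pan-endothelial genes were not steady: 6 of 16 were higher in DRG and 4 higher in spinal cord in the MSU libraries, and Pecam1 stood at 0.42 (adjusted p = 0.0219). Skeletal muscle genes summed to 13480, 1521 and 1490 CPM in the DRG MSU libraries, against 10.4, 49.4 and 76.7 CPM in the spinal cord MSU libraries, and the 8 of them were all higher in DRG there. In controls the same sum was 255, 150 and 24.1 CPM in DRG and 123, 272 and 32.9 CPM in spinal cord, where edgeR called 0 of the 8, with 0 at an unadjusted p below 0.05 and 0 called by DESeq2 or limma-voom. The part of muscle RNA in other genes' differences was not tested.

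**Figure D5:**
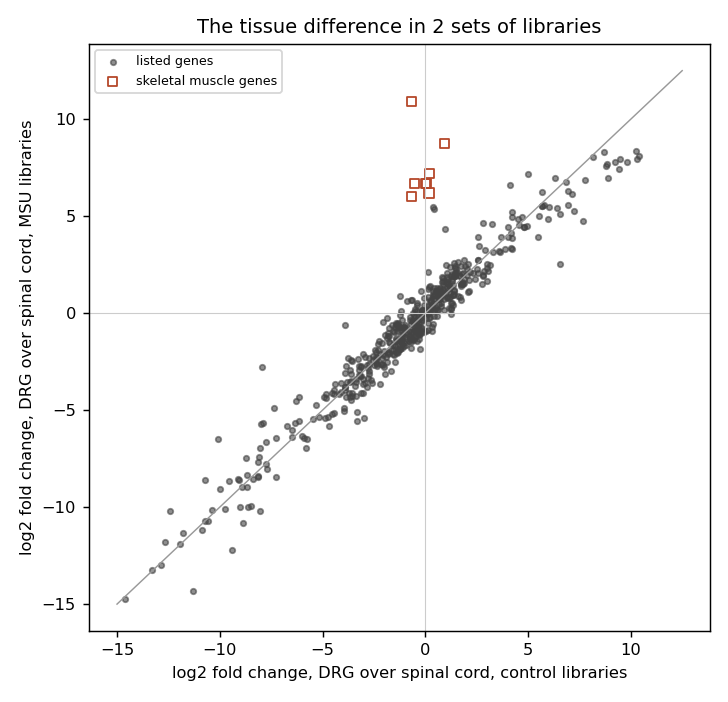
Fitted log2 fold change of DRG over spinal cord in the control libraries (x axis) and in the MSU libraries (y axis) for the 526 listed genes tested in both sets, genes at 0 counts included at their fitted value; the line marks equal values, and squares are skeletal muscle genes. Most genes lie along the line, 488 with the same sign, while the 8 muscle genes lie above it.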

How the data were processed

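Total RNA was extracted with TRIzol and made into libraries with the VAHTS Universal V6 kit, per the labels' protocols. The deposited values are whole-number read counts per Ensembl gene, made by the authors; the submitters' processing notes name HISAT2, HTSeq 0.11.3, DESeq2 and the build mm39, with no role given. The annotation and strand setting are not given in the sources used here, so reads of overlapping or antisense genes cannot be told apart. The files hold 55359 genes, of which 52083 (99.88% of control counts) were named with GENCODE M21.

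The 6 control libraries were fitted with edgeR 4.0.16 (R 4.3.3): filterByExpr (minimum count 10, minimum total 15), TMM scaling, the quasi-likelihood F-test and Benjamini-Hochberg adjustment over all 17383 genes tested. CPM use TMM-scaled totals, computed separately for the control and the MSU libraries. In the control libraries 3 counts are 0.0863 to 0.212 CPM, and intervals and floors cover counting error only. A gene at 0 counts in a tissue is given as a bound against 3 counts over the group. With 1 to 3 counts, a ratio with a 95% interval is given. Levels per kilobase use GENCODE M21 exon length.

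The 42 gene lists and the members described were chosen with earlier results of these data known. Named genes were the defining genes of each list, its 4 members highest in mean CPM, and the 12 largest differences each way among called, non-overlapping genes with at least 10 CPM; others are said to be named after their values were seen. Replicate libraries of a tissue differed by more than sampling noise (chi-square per degree of freedom 6.21 to 14.05). DESeq2 1.42.0, limma 3.58.1 (voom), other scalings and filters, leave-one-out fits, replicate blocks, larger fits and the MSU libraries were tried as alternatives. Ranges given over the alternative settings leave out the MSU contrast, which can lie outside them. Ranges of adjusted p also leave out the test against a 2-fold change. The fits were tested on simulated data. Some listed genes are not reported here by name.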

Additional observations from a re-analysis of the deposited data

Results flagged for a closer look

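The 12 genes with the largest differences toward DRG, all of them low in spinal cord, summed to 33.6 CPM in spinal cord MSU library 3, a library outside the control comparison, which is 0.639% of the mean DRG control sum. The spinal cord control libraries held 1.399 to 16.2 CPM, but the 12 genes were chosen for their large difference in those same control libraries. That choice favours low control cord sums, so these sums are not a neutral reference for the MSU libraries. The spinal cord MSU libraries 1 and 2 held 3.11 and 4.23 CPM.

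Rbfox3, the NeuN gene, had opposite signs in the sets of libraries: its log2 fold change, DRG over spinal cord, was -0.54 in the MSU libraries and 0.35 in the control libraries. Rbfox3 had 139, 126 and 121.5 CPM in the DRG MSU libraries, against 199, 174 and 187.5 CPM in the spinal cord MSU libraries, so the tissues did not overlap in either set. The difference between the sets was not tested. The DRG MSU libraries also held 1490 to 13480 CPM of skeletal muscle genes, against 10.4 to 76.7 CPM in the spinal cord MSU libraries; the part of muscle RNA in the Rbfox3 value was not tested.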

How the results depend on the processing

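Over all genes, 5311 to 6036 were higher in DRG and 5537 to 5974 higher in spinal cord when each control library was left out in turn. Scaling by library size only moved the median log2 fold change of all genes by -0.121 and gave 4848 and 6960. Testing against a 2-fold change (glmTreat) gave 1631 and 2247, since it asks for more than a difference from 0. Under it the members called toward the list's own side were 4 pan-neuronal, 5 large-fibre, 6 peripheral myelin, 1 macrophage, 2 pan-endothelial, 6 blood-brain barrier, 1 pericyte, 1 smooth muscle, 2 nerve sheath, 2 presynaptic, 17 Hox and 4 neutrophil genes. It called 0 fibroblast genes (2 at an unadjusted p below 0.05) and 0 meningeal genes (1 at that level). For the counts that follow, the cause was not tested. Library size only gave 3 macrophage and 3 smooth muscle genes. The fit of 4 groups gave 3 macrophage, 2 meningeal and 5 neutrophil genes, and the fit of all 18 libraries gave 3 of each. The MSU libraries gave 4 pan-endothelial, 2 pericyte, 8 nerve sheath, 7 meningeal and 0 neutrophil genes. Meningeal counts were 3 with no count filter, 2 with DESeq2 and 6 without library 3 of both tissues, an alternative chosen after seeing the data. Leaving out each library gave 2 to 8 macrophage, 1 to 9 fibroblast, 1 to 5 meningeal and 5 to 8 neutrophil genes. The labels do not say that same-numbered libraries came from the same mouse, so they were not treated as pairs. Same-numbered libraries deviated together only weakly (correlations of 0.079, 0.056 and 0.046), although each library correlated best with its own title number. These correlations cannot settle whether the libraries are paired. With a replicate block by title number, 5635 and 5921 genes were called and 2 fibroblast genes; with a block by description number, 5993 and 5991 genes were called, with 10 meningeal and 5 neutrophil genes and Slc6a13 at 0.70. Among 221 named and tested genes, the sign turned in the MSU libraries, for genes called in at least 1 of the sets, in Ackr1 (-0.070), Ckm (6.67), Col2a1 (-0.89), Hoxa9 (-0.26), Pecam1 (0.42), Plvap (-0.92), Rbfox3 (-0.54), Vamp2 (-0.12) and Vwf (0.11). No other alternative turned a sign of a called gene but that of Slc6a13. At these depths the chosen floor of 3 counts in a library is 0.0863 to 0.212 CPM, and values under it rest on 1 or 2 counts. Having 3 libraries per tissue from an undescribed dissection limits every comparison.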

Other observations

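Genes of other tissues were measured in the same libraries as a check. Mast cell genes summed to 3.76 to 12.4 CPM in DRG and to at most 0.495 CPM in spinal cord, and 1 of 7 passed the filter on low counts. Erythroid genes, of which the haemoglobin genes are near-identical copies with uncertain single values, were higher in DRG in 3 of 5 members, with sums of 193 to 252 CPM in DRG and 115 to 190.5 CPM in spinal cord. That count was 1 without spinal cord library 1, 1 without spinal cord library 2 and 1 in the fit of all 18 libraries. It was 5 with the replicate block by description number, 5 without library 3 of both tissues and 5 in the MSU libraries, and glmTreat called 0, with 0 at an unadjusted p below 0.05. T cell genes summed to 4.03 to 5.46 CPM in DRG and 3.17 to 3.47 CPM in spinal cord, and cartilage and bone genes to 24.9 to 55.0 CPM in DRG and 13.9 to 19.9 CPM in spinal cord.

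Opalin, at 28.9 to 35.9 CPM in the spinal cord control libraries, had 5.34, 9.06 and 6.34 CPM in the spinal cord MSU libraries. The control and MSU libraries were scaled separately, and the difference between them was not tested.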
